A study of Rattus norvegicus with 4 samples.

Results

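The annotated ORFs (open reading frames) of at most 303 nt, which encode proteins of at most 101 residues, were examined in cultured heart muscle cells after phenylephrine. The length limit was applied to ORFs of the annotated class. Ribosomal proteins, respiratory chain and ATP synthase subunits and mitochondrial import proteins were left out by gene name. So were CHCHD and S100 proteins, chemokines, FXYD proteins, phospholamban and sarcolipin. Proteins of these families under other names stayed in, such as those of the 5 member ORFs of the mitochondrial genome. This gave 418 ORFs of 405 genes, out of 18847 ORFs listed in all, 15034 of them annotated. A further 88 short annotated ORFs carried an excluded name, and 14528 annotated ORFs were longer. The members were 10 to 101 residues long, with a median of 78. No footprint count entered the rule, but footprints may have decided which ORFs the authors listed.

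Neonatal rat ventricular cardiomyocytes of the Sprague-Dawley strain, taken at postnatal day 2, were compared in 2 groups of 2 libraries each. The PE group had been exposed to phenylephrine, an agonist of α1-adrenergic receptors, at 20 µM for 24 h. The control group was untreated. Per the labels' protocols, all cells were grown in medium with serum after non-cardiomyocytes had been reduced by preplating, so these are primary cultures that can hold other heart cells. The readout was ribosome profiling, in which RNA fragments protected by ribosomes (footprints) are sequenced and counted on ORFs. A footprint count moves with both the amount of an mRNA and its translation, and RNA-seq was not analysed here, so these contributions cannot be told apart. Whether the libraries of a group stem from separate cultures is not stated in the labels. The spread that p-values measure is that between these libraries and may be technical.

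Many cellular machines contain proteins this small. They include ubiquitin and its relatives, which are attached to other proteins, the Sm and LSm proteins that form rings on spliceosomal RNAs, light chains of the dynein motor, and subunits of the translocon and of glycosylating enzymes in the endoplasmic reticulum. Others bind metals, as metallothioneins do, inhibit kinases or proteases, or are secreted as peptide hormones such as hepcidin. In heart muscle, phenylephrine is widely used to set off hypertrophic growth through Gq-coupled receptors.

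The proximal promoters of 3 members with higher footprint counts in PE cells are shown because each holds a match to a well-known short motif. As background, metal response elements are known from metallothionein promoters. The letters are those of RefSeq (GRCr8) for the 250 bases before the annotated start site, 5′ to 3′ on the gene's strand, with motif matches in capitals. Mt2A, a metallothionein, has the interval chr19:10838709-10838958 on the minus strand. Cystm1, a cysteine-rich membrane protein, has chr18:28225540-28225789 on the plus strand. Hamp, the hepcidin gene, has chr1:95300272-95300521 on the minus strand.
Mt2A: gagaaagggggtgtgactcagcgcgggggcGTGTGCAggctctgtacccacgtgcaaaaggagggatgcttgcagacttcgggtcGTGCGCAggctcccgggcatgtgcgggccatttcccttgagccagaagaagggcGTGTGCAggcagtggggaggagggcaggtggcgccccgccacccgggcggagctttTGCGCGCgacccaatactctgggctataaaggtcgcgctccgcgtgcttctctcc
Cystm1: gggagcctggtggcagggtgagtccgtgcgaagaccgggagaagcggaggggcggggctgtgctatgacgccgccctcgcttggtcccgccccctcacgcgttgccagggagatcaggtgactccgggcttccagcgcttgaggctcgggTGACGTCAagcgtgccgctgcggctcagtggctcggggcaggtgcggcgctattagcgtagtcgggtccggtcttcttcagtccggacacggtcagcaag
Hamp: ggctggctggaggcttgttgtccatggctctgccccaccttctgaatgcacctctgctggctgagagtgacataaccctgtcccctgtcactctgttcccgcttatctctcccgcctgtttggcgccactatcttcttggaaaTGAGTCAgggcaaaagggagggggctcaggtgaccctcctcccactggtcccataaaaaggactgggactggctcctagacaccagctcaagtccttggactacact
In the Mt2A promoter the capitals mark the core of the metal response element, TGCACNC or TGCGCNC on either strand, with 4 matches starting at -220, -165, -111 and -55 from the start site. In the Cystm1 promoter they mark the cyclic AMP response element TGACGTCA, which starts at -100. In the Hamp promoter they mark the AP-1 motif, TGACTCA or TGAGTCA, which starts at -107. Only the motif named is marked in each promoter. Of the others, an AP-1 motif starts at -237 in the Mt2A promoter, apart from the metal response cores. Of 33469 RefSeq promoters of this length, 20.6% held the metal response core, 1.59% the cyclic AMP response element and 4.05% the AP-1 motif. Among 252 promoters of members, the shares were 25.0%, 3.57% and 5.95%. A match describes these letters and is not a shown binding site. Promoter entries were found for 229 of the 418 members.

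Totals over listed ORFs were 12117629 and 12537740 footprints for PE, against 11446574 and 13827599 for control. Values are CPM, counts per 1000000 footprints after TMM scaling, and 1 count was worth 0.0723 to 0.0874 CPM. Each library was counted as a separate sample. Differences between replicates exceeded sampling noise (chi-square divided by its degrees of freedom was 1.6 for PE and 1.61 for control). This does not show that they stem from separate cultures. Cardiomyocyte markers summed to 103000 CPM in both PE libraries and 83900 CPM in both control libraries, with 4 of 9 higher and 5 lower, and with Myl2 and Ttn not among the listed ORFs. Fibroblast markers summed to 20800 and 21100 CPM in PE, against 34400 and 34700 CPM in control, and 5 of 8 tested were lower and 1 higher. Endothelial markers summed to 129 and 136 CPM in PE, against 230 and 221 CPM in control, with 4 of 6 tested lower. Smooth muscle markers summed to 5350 and 5430 CPM in PE, against 3600 and 3610 CPM in control, with 2 of 6 higher and 4 lower. Schwann and neuronal markers summed to 53.8 and 62.9 CPM in PE, against 48.5 and 50.1 CPM in control, with 1 of 3 tested higher. Fewer cells of a type and less RNA per cell cannot be told apart here, and the part of cell makeup in the results below was not tested.

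Among the small proteins, more ORFs had higher than lower footprint counts in PE cells. They included the metallothionein Mt2A, the thymosins Tmsb4x and Tmsb15b2, the dynein light chain Dynll1 and hepcidin. Lower counts were found on Smim5, Nrep, Fcer1g and Gypc. Enough counts for a test were present on 185 members, of 184 genes. Of these, 55 were higher and 18 lower in PE in the quasi-likelihood test of edgeR, with p-values adjusted by Benjamini-Hochberg over 12609 ORFs and a threshold of 0.05, and 112 were not called. The 73 called members were 39.5% of those tested, beside 42.7% of all tested ORFs. Higher calls made up 29.7% of tested members, beside 21.4% of all tested ORFs, and lower calls made up 9.73%, beside 21.3%. With the length trend described below removed, 42 of the 185 were higher and 32 lower, beside 20.9% and 19.7% of all tested ORFs. By DESeq2 the split was 37 higher and 9 lower, beside 13.6% higher and 13.6% lower over all ORFs it tested. The median log2 fold change, PE over control, was 0.13 over the tested members and 0.00 over all tested ORFs. PE and control libraries did not overlap in 130 tested members (70.3%), beside 68.6% of all tested ORFs. PE was above control in 89 of them and below it in 41, and over all tested ORFs these shares were 34.4% and 34.3%. Called higher members had a median log2 fold change of 0.45 and called lower members one of -0.71, and 11 higher and 5 lower members changed by at least 2-fold, which is 21.9% of called members, beside 18.7% of all called ORFs. The members together took 0.7% and 0.692% of all counts in the PE libraries, against 0.629% and 0.622% in the control libraries.

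The ORFs with most footprints per kb of coding length were Tmsb4x, Txn1, Lbh, Hamp, Ost4, Smpx, Ubl5, Cstb, Cops9 and Higd1a, in this order. Their mean levels ran from 2650 CPM per kb for Tmsb4x to 687 CPM per kb for Higd1a, beside a median of 47.5 CPM per kb over tested members and 14.1 CPM per kb over tested longer annotated ORFs. Lbh, a transcription cofactor named for limb bud and heart, had 372 and 370 CPM in PE and 372 and 373 CPM in control, and its groups overlapped. Smpx, a small muscle protein of the costamere, had 245 and 230 CPM in PE, against 267 and 260 CPM in control. Both PE values were below both control values, a log2 fold change of -0.15 ± 0.03 (SE, n = 2 libraries per group, adjusted p = 0.00059). Higd1a, a mitochondrial inner membrane protein induced by hypoxia, had 208 and 213 CPM in PE, against 169 and 177 CPM in control. The protease inhibitor Cstb and the ubiquitin-like Ubl5 each had a log2 fold change of -0.03 and were not called. With the length trend removed, Lbh (-0.13, adjusted p = 0.0002), Ubl5 (-0.16, adjusted p = 0.00064) and Cstb (-0.15, adjusted p = 0.00051) passed the threshold as lower.

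**Figure D1:**
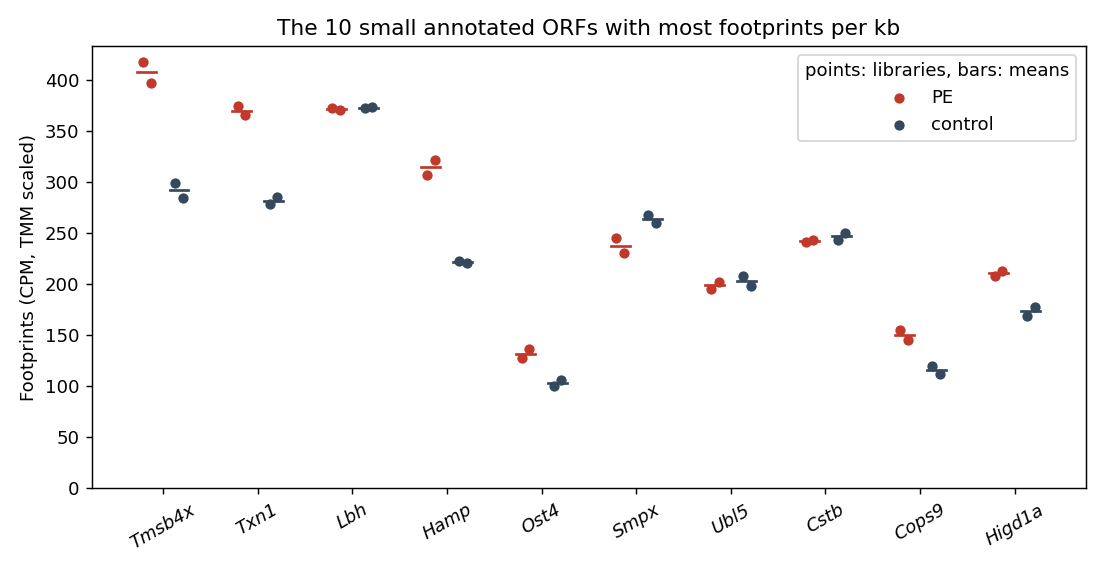
Footprint levels (vertical axis, CPM) of the 10 small annotated ORFs with most footprints per kb, in order of that level. Points are libraries and bars are group means, with PE left of control. For Tmsb4x the PE libraries lie at 417 and 397 CPM, above the control libraries at 299 and 284 CPM, while for Lbh all 4 libraries lie between 370 and 373 CPM.

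Counts by role, here and below, stand beside 21.4% higher and 21.3% lower over all tested ORFs. Over the tested members these shares were 29.7% and 9.73%. The lists are short, and no list was tested as a set. Among metallothioneins, redox proteins and protease inhibitors, 8 of 11 listed ORFs were tested, and 6 were higher and 0 lower, with a median log2 fold change of 0.62. Mt2A, a cysteine-rich protein that binds zinc and copper, had 115 and 115 CPM in PE, against 56.2 and 51.0 CPM in control. Both PE libraries were above both control libraries, a log2 fold change of 1.1 ± 0.06 (adjusted p = 5.9e-17). Its ORF of 61 residues, 20 of them cysteine, lies at chr19:11308101-11308678 on Rnor_6.0. A P-site is the codon position inside a footprint-bearing ribosome, and the authors' annotation gives P-sites pooled over libraries. Mt2A had 0.257 counts per P-site, where the median tested member had 1.15. Mt1m, whose protein is identical to Mt2A at 60 of 61 residues, had 7.60 and 7.31 CPM in PE, against 4.13 and 4.35 CPM in control. Its log2 fold change was 0.81 ± 0.20 (adjusted p = 0.0016), at 0.0282 counts per P-site. Mt1, identical to Mt2A at 49 residues, had 2.34 and 2.27 CPM in PE, against 1.12 and 1.71 CPM in control, and was not called (0.68 ± 0.37, adjusted p = 0.15). The counting of reads shared by near copies is not stated, so the separate levels of these genes are uncertain. Thioredoxin Txn1 had 374 and 365 CPM in PE, against 278 and 285 CPM in control, a log2 fold change of 0.39 ± 0.03 (adjusted p = 6.4e-13). Its listed ORF of 69 residues is shorter than the full thioredoxin. The acylphosphatase Acyp1 (0.55 ± 0.12, adjusted p = 0.00042) and the copper chaperone Atox1 (0.31 ± 0.09, adjusted p = 0.0048) were higher too. Atox1 missed the threshold with the length trend removed (0.18, adjusted p = 0.10) and on leaving out control replicate 2 (0.20, adjusted p = 0.16). Bola2, an iron-sulfur assembly factor, had 4.59 and 5.68 CPM in PE, against 3.27 and 1.57 CPM in control. Its log2 fold change of 1.12 ± 0.29 (adjusted p = 0.002) dropped to 0.65 (adjusted p = 0.10) without control replicate 2 and was 1.7 (adjusted p = 1.3e-05) without control replicate 1. Of the 6 higher members, Txn1, Acyp1 and Atox1 had at least 0.5 counts per P-site.

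Of cytoskeleton and motor subunits, 9 of 10 listed were tested, 5 were higher and 1 lower, with a median log2 fold change of 0.26. Tmsb4x encodes thymosin β4, which holds actin monomers. It had 417 and 397 CPM in PE, against 299 and 284 CPM in control, so the groups were apart, with a log2 fold change of 0.48 ± 0.03 (adjusted p = 1e-14) at 0.467 counts per P-site. Tmsb15b2, a thymosin identical to Tmsb4x at 32 of 44 residues and on none of the 12 role lists, had 18.6 and 16.2 CPM in PE, against 10.2 and 12.3 CPM in control (log2 fold change 0.62 ± 0.13, adjusted p = 0.00031). Tmsb10, identical to Tmsb4x at 33 residues, had 4090 P-sites but only 4 and 1 counts in PE and 0 in both control libraries, and was not tested. The dynein light chain Dynll1 had 152 and 149 CPM in PE, against 100 and 109 CPM in control. Its log2 fold change was 0.52 ± 0.05 (adjusted p = 6e-11). Its paralog Dynll2 is identical at 83 of 89 residues and had 67.4 and 73.5 CPM in PE, against 74.9 and 76.0 CPM in control. Dynll2 was not called (-0.10 ± 0.06, adjusted p = 0.19), but was lower with the length trend removed (-0.22, adjusted p = 0.003), and the difference between the paralogs was not tested. Dynlrb1, another dynein light chain, had 184 and 192 CPM in PE, against 147 and 148 CPM in control (0.35 ± 0.04, adjusted p = 7.2e-09). Sh3bgrl3 (0.56 ± 0.07, adjusted p = 1.2e-07) and the Ragulator subunit Lamtor4 (0.26 ± 0.07, adjusted p = 0.0024) were the other higher members. Lamtor4 is counted here because it stands on this list, though Ragulator is neither a filament nor a motor. Lamtor4 missed the threshold with the length trend removed (0.14, adjusted p = 0.11) and when control replicate 1 was left out (0.19, adjusted p = 0.059). The LIM domain protein Crip1 had 39.8 and 41.8 CPM in PE, against 55.1 and 55.4 CPM in control, and was lower (-0.44 ± 0.07, adjusted p = 5.3e-06).

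In the secretory pathway, 4 of 11 tested ORFs were higher and 0 lower, beside 21.4% and 21.3% of all tested ORFs. The median log2 fold change was 0.24. Serp1, a stress-associated protein that binds the translocon of the endoplasmic reticulum, had 47.8 and 48.2 CPM in PE, against 30.1 and 31.6 CPM in control. Both PE values exceeded both control values (0.64 ± 0.08, adjusted p = 4.5e-08). Ost4, an oligosaccharyltransferase subunit of 37 residues, had 127 and 136 CPM in PE, against 99.9 and 106 CPM in control (0.35 ± 0.05, adjusted p = 3.8e-07). The translocon subunit Sec61b had 72.8 and 70.1 CPM in PE, against 53.1 and 57.2 CPM in control (0.37 ± 0.06, adjusted p = 1.4e-05). The proton pump subunit Atp6v0e1 was higher by 0.24 ± 0.06 (adjusted p = 0.0014), and its paralog Atp6v0e2, identical at 56 of 81 residues, had -0.02 ± 0.10 and was not called. That of Atp6v0e1 was 0.12 (adjusted p = 0.12) once the length trend was removed. Srp9, a protein of the signal recognition particle, had a log2 fold change of 0.02 ± 0.07 and overlapping groups. Serp2, a paralog of Serp1, was low, at 0.835 and 1.14 CPM in PE, against 0.344 and 0.641 CPM in control, and was not called (adjusted p = 0.18).

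Secreted peptides gave 2 higher and 0 lower calls among 3 tested ORFs of 5 listed. Hamp encodes hepcidin, the iron hormone that binds the exporter ferroportin and is made mainly in liver but also in heart. It had 307 and 321 CPM in PE, against 222 and 220 CPM in control. The groups were apart by a log2 fold change of 0.51 ± 0.03 (adjusted p = 1.4e-14). Spink8, a member of the Kazal family of protease inhibitors, had 190 and 185 CPM in PE, against 139 and 134 CPM in control (0.46 ± 0.04, adjusted p = 2.5e-11). Apln, the ligand of the apelin receptor, had 11.8 and 12 CPM in PE and 11.2 and 12.4 CPM in control. Its groups overlapped, and its log2 fold change was 0.01 ± 0.14.

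Of mitochondrial assembly factors and membrane peptides, 15 of 20 listed ORFs were tested, 6 were higher and 0 lower, with a median log2 fold change of 0.28. Minos1, a core subunit of the cristae organising system, had 106 and 99.7 CPM in PE, against 88.9 and 81.2 CPM in control (0.28 ± 0.05, adjusted p = 0.0001). Pet100, an assembly factor of cytochrome c oxidase, had 42.1 and 44.3 CPM in PE, against 33.5 and 32.3 CPM in control (0.40 ± 0.08, adjusted p = 0.00014). Higd1a was higher by 0.28 ± 0.04 (adjusted p = 1.8e-07). Cmc2 (0.45 ± 0.13, adjusted p = 0.0062), Romo1 (0.46 ± 0.18, adjusted p = 0.038, at 0.0833 counts per P-site) and Bola2 completed the higher calls. Bola2 is counted on this list as well as on that of metal and redox proteins, and its place in the cell was not examined. Romo1 missed the threshold when any library was left out (adjusted p 0.06 to 0.21) and with the length trend removed (0.34, adjusted p = 0.14). Cmc2 missed it on leaving out PE replicate 1 (0.36, adjusted p = 0.054) or control replicate 2 (0.22, adjusted p = 0.25). Without control replicate 2, 3 members of this group were higher and 2 lower, where 17.1% of all tested ORFs were higher and 17.6% lower. Other assembly factors, such as Coa5 (-0.15 ± 0.12) and Coa6 (-0.25 ± 0.17), had log2 fold changes below 0 and were not called.

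The ubiquitin-like proteins and ubiquitin ligase subunits were all tested, and 5 of 11 were higher and 0 lower, with a median log2 fold change of 0.19. Nedd8, the modifier that activates cullin ligases, had 85.9 and 82.6 CPM in PE, against 65.4 and 61.0 CPM in control (0.42 ± 0.06, adjusted p = 6.3e-07). Cops9, a subunit of the COP9 signalosome that removes Nedd8, had 155 and 145 CPM in PE, against 120 and 112 CPM in control (0.38 ± 0.05, adjusted p = 4.8e-08). Both were apart between groups. Anapc11, the RING subunit of the anaphase-promoting complex, was higher by 0.22 ± 0.06 (adjusted p = 0.0025), and by 0.10 (adjusted p = 0.20) with the length trend removed. Sumo2, whose listed ORF of 52 residues is shorter than the full protein, was higher by 0.42 ± 0.12 (adjusted p = 0.0044) at 0.24 counts per P-site, and by 0.28 (adjusted p = 0.06) with the length trend removed. The fifth, Elof1, is a transcription elongation factor that stands on this list as well as on that for transcription. It had 29.4 and 31.6 CPM in PE, against 20.7 and 20.7 CPM in control (0.56 ± 0.10, adjusted p = 2.4e-05). Ufm1, Urm1, Ubl5, Anapc13 and Sem1 were among those not called. With the length trend removed, 3 of the 11 were higher and 1 lower.

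Among spliceosome and RNA-binding proteins, 1 of 10 tested ORFs was higher and 1 lower, with a median log2 fold change of 0.19. Lsm2, of the ring on U6 RNA, had 14.6 and 16.0 CPM in PE, against 12.7 and 10.8 CPM in control (0.39 ± 0.14, adjusted p = 0.02). It missed the threshold without PE replicate 2 (0.32, adjusted p = 0.14), on leaving out control replicate 2 (0.26, adjusted p = 0.23) and with the length trend removed (0.27, adjusted p = 0.11). Serf1, which is not a splicing factor and is related to a modifier of protein aggregation, was lower (-0.72 ± 0.22, adjusted p = 0.0088), and had -0.54 (adjusted p = 0.15) without control replicate 2. Snrpf (0.43, adjusted p = 0.078), Snrpe (0.37, adjusted p = 0.25) and Lsm8 (0.16, adjusted p = 0.16) were not called. Without control replicate 1, Snrpf passed the threshold (0.63, adjusted p = 0.027). Sf3b5, of the splicing factor SF3b, had 116 and 113 CPM in PE and 111 and 116 CPM in control. Of 9 tested ORFs of RNA polymerase, transcription and chromatin, 1 was higher (Elof1) and 1 lower. The lower one was the DNA-bridging protein Banf1 (-0.15 ± 0.06, adjusted p = 0.046), which missed the threshold when any PE replicate or control replicate 1 was left out and had an adjusted p of 0.05 without control replicate 2. The polymerase subunit Polr2k (0.21 ± 0.12), Snapc5 (0.16 ± 0.18) and the kinetochore protein Cenpw (0.76 ± 0.40) were not called. Without control replicate 1, Cenpw had a log2 fold change of 1.39 (adjusted p = 0.039).

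Small integral membrane proteins moved in both directions, with 4 of 13 tested ORFs higher and 2 lower. Smim5 had the lowest log2 fold change of the members named by level of change, -1.80 ± 0.34 (adjusted p = 5e-05). It had 1.09 and 1.14 CPM in PE, against 3.70 and 4.06 CPM in control, which were 13 and 14 counts in PE, against 43 and 57 counts in control. All PE values lay below all control values. Nnat, neuronatin, a membrane protein of the endoplasmic reticulum, had 1.5 and 0.65 CPM in PE, against 2.24 and 3.35 CPM in control (-1.39 ± 0.40, adjusted p = 0.0055). Leaving out PE replicate 2 gave -0.90 (adjusted p = 0.10), leaving out control replicate 2 gave -1.06 (adjusted p = 0.12), and leaving out PE replicate 1 gave -2.11 (adjusted p = 0.00058). Smim13 had 6.68 and 3.41 CPM in PE, against 2.84 and 2.42 CPM in control (0.94 ± 0.29, adjusted p = 0.009), but without PE replicate 1 its log2 fold change was 0.38 (adjusted p = 0.45). Smim3 (0.59 ± 0.18, adjusted p = 0.01) lost its call when PE replicate 1 (0.43, adjusted p = 0.16) or control replicate 1 (0.48, adjusted p = 0.062) was left out. Smim14 (0.38 ± 0.10, adjusted p = 0.0026) and Smim7 (0.24 ± 0.06, adjusted p = 0.00061) had more counts, and Smim7 had 0.11 (adjusted p = 0.11) with the length trend removed. The heart micropeptides Mrln and Strit1 were not among the listed members.

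Of 6 tested G protein γ subunits, which anchor the βγ dimer to the membrane, 2 were higher and 0 lower, with a median log2 fold change of -0.02. Gng3, known from brain, had 2.51 and 2.60 CPM in PE, against 0.861 and 0.499 CPM in control. It rested on 30 and 32 counts in PE, against 10 and 7 counts in control, and gave a log2 fold change of 1.92 ± 0.43 (adjusted p = 0.00044). Gng10 was higher by 0.34 ± 0.10 (adjusted p = 0.0057), by 0.20 (adjusted p = 0.19) without control replicate 2 and by 0.21 (adjusted p = 0.087) with the length trend removed. Gng12 had 58.8 and 58.2 CPM in PE, against 56.5 and 47.7 CPM in control, and just missed the threshold (0.18 ± 0.07, adjusted p = 0.051). Without control replicate 1 it passed (0.29, adjusted p = 0.0036), and it also passed with no low-count filter (adjusted p = 0.037), among ORFs of 0.5 counts per P-site or more (0.036) and with 1 annotated ORF per gene (0.049). Of 6 kinase, phosphatase and calmodulin regulators, 1 was higher and 1 lower. Pcp4l1, related to the calmodulin-binding protein PCP4, had 4.18 and 3.41 CPM in PE, against 7.49 and 6.84 CPM in control (-0.91 ± 0.22, adjusted p = 0.00082). Pkia, an inhibitor of protein kinase A, was higher (1.09 ± 0.26, adjusted p = 0.001), but had 0.0898 counts per P-site and 47.0% of its P-sites in frame, and it overlaps other listed ORFs. The kinase inhibitor Camk2n1 had 3.26 and 2.92 CPM in PE, against 4.56 and 3.49 CPM in control, and was not called (-0.37 ± 0.27). Cks2, a partner of cyclin-dependent kinases, was not called either (0.19 ± 0.16).

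Of immune and blood cell proteins, 3 of 4 listed ORFs were tested, with 1 higher and 1 lower. Fcer1g, the signalling chain of Fc receptors in myeloid cells, had 24.7 and 24.6 CPM in PE, against 41.0 and 38.3 CPM in control. Both PE values were below both control values, with a log2 fold change of -0.68 ± 0.09 (adjusted p = 1.1e-07). Macrophage markers moved with it: 6 of 7 tested were lower, with sums of 293 and 283 CPM in PE, against 456 and 434 CPM in control, and Cd163 at 0. Their part in the Fcer1g result was not tested. Ifi27l2b, related to an interferon-induced protein, was higher (0.29 ± 0.09, adjusted p = 0.0077), but missed the threshold without PE replicate 2 (0.25, adjusted p = 0.081) and with the length trend removed (0.17, adjusted p = 0.12). Gypc, glycophorin C, ties the membrane to the cytoskeleton through protein 4.1 and is best known from red cells. It had 39.8 and 38.2 CPM in PE, against 59.3 and 60.9 CPM in control (-0.63 ± 0.07, adjusted p = 5.9e-09). The 4 erythroid markers searched for were not among the listed ORFs.

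**Figure D2:**
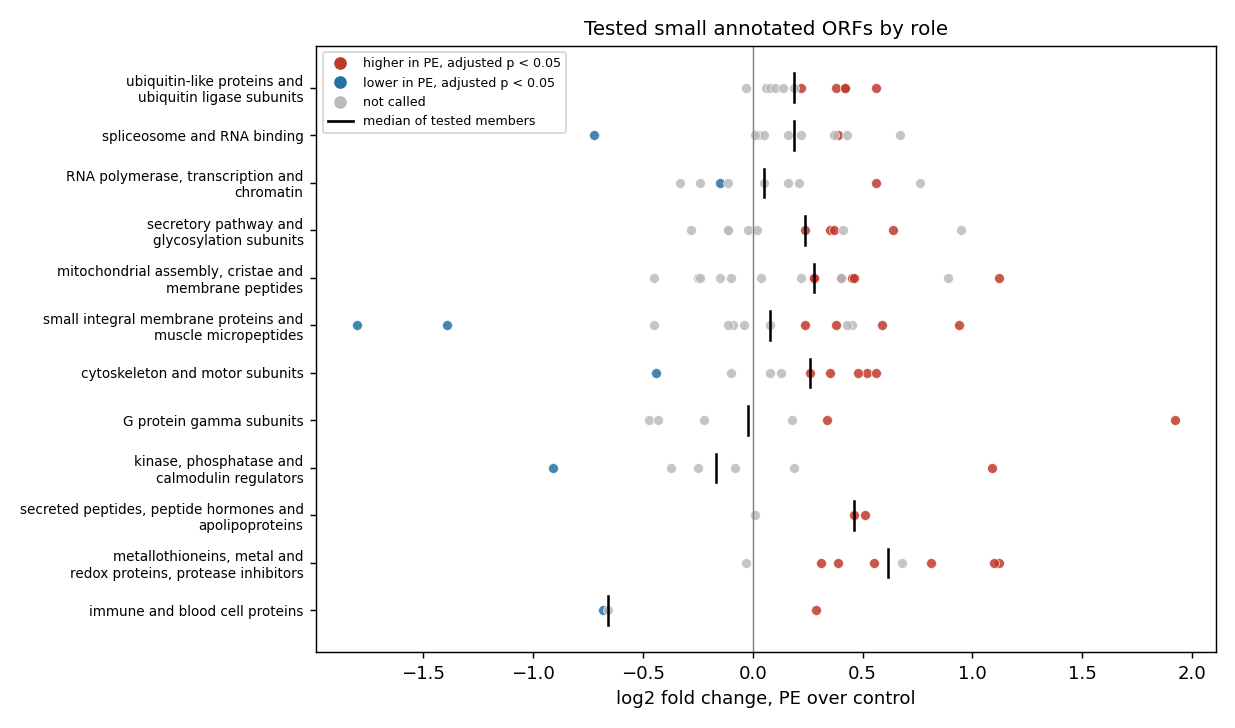
Log2 fold change, PE over control (horizontal axis), of tested small annotated ORFs by role list. Each point is an ORF, coloured by its call, and black lines are medians. Metallothioneins, redox proteins and inhibitors have the highest median of the 12 lists at 0.62. On that list 6 of 8 ORFs were called higher, beside 21.4% of all tested ORFs.

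For the 6 lists with 0 lower calls in edgeR's test, DESeq2 also made 0 lower calls. This adds no support, since DESeq2 called fewer ORFs lower in all, 13.6% beside 21.3% in edgeR's test. At an unadjusted p under 0.05, edgeR gave 2 lower mitochondrial members (Etfrf1 and Smim8) and 1 lower γ subunit (Gngt2), and 0 on the other 4 of these lists. With the length trend removed, lower calls appeared on 4 of the 6 lists. Under the other alternatives they reached 2 on the mitochondrial list, 1 on that of γ subunits and 1 on that of the secretory pathway.

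The largest changes included ORFs on no list. Cystm1, a cysteine-rich membrane protein with 6 cysteines in 101 residues, had 69.8 and 73.8 CPM in PE, against 27.1 and 32.7 CPM in control. The groups were well apart, at a log2 fold change of 1.25 ± 0.08 (adjusted p = 4.9e-15). Its ORF spans chr18:29191731-29232978 on Rnor_6.0, introns included, and overlaps a longer listed ORF of the same gene. Mllt11, first known as a fusion partner of KMT2A in leukaemia, had 29.9 and 32.6 CPM in PE, against 14.4 and 14.8 CPM in control (1.1 ± 0.11, adjusted p = 3.1e-10). Nrep, a protein described in nerve regeneration and in myofibroblasts, had 6.93 and 9.09 CPM in PE, against 17.8 and 20.2 CPM in control, so PE lay below control (-1.25 ± 0.14, adjusted p = 1.2e-08). Of the fibroblast markers given above, 5 of 8 tested were lower and 1 higher, and their part in the Nrep result was not tested. Dexi was higher (0.72 ± 0.21, adjusted p = 0.0058), but by 0.42 (adjusted p = 0.24) without PE replicate 2. AABR07001100.1 was higher (1.27 ± 0.40, adjusted p = 0.011), but missed the threshold on leaving out PE replicate 1 (1.15, adjusted p = 0.074) or control replicate 2 (0.84, adjusted p = 0.18). AABR07026805.2 was higher (1.28 ± 0.20, adjusted p = 3.6e-06) at 0.0385 counts per P-site, and 74.1% of its 10-residue windows recur in ORFs of other genes.

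Lower on no list were also LOC691921, Syngr1, Gucd1 and AABR07022144.1. The listed ORF of Gucd1 has 29 residues and need not stand for the full protein of this gene. LOC691921 had 5.43 and 4.63 CPM in PE, against 9.47 and 9.98 CPM in control (-0.95 ± 0.18, adjusted p = 6.5e-05). Syngr1, whose 86-residue ORF overlaps a longer one of this synaptogyrin gene, had -1.11 ± 0.39 (adjusted p = 0.021) at 0.368 counts per P-site. Its call ended on leaving out PE replicate 1 (-1.0, adjusted p = 0.069) or control replicate 2 (-0.50, adjusted p = 0.52). Gucd1 had -0.74 ± 0.21 (adjusted p = 0.005), against -0.62 (adjusted p = 0.052) when PE replicate 1 was left out and -0.56 (adjusted p = 0.11) when control replicate 2 was. AABR07022144.1 had -0.71 ± 0.22 (adjusted p = 0.0093) and -0.59 (adjusted p = 0.093) without PE replicate 2. Some members with fewer than 20 counts per library on average, singled out after their values were seen, were also called. Those given next passed the low-count filter only through the group where they were high, which favours a difference between groups. Gng3 likewise needed its PE libraries to pass the filter, and Nnat its control libraries. D430019H16Rik had 21 and 25 counts in PE, against 1 and 1 counts in control (adjusted p = 4e-06). Mustn1, a nuclear protein of muscle and skeleton, had 1.25 and 1.46 CPM in PE, against 0.602 and 0.143 CPM in control (adjusted p = 0.0089). Wfdc21 had 1.67 and 1.38 CPM in PE, against 0.43 and 0.499 CPM in control (adjusted p = 0.0084), and Scgb1c1 had 0.501 and 0.244 CPM in PE, against 2.15 and 0.998 CPM in control (adjusted p = 0.0051). Leaving out 1 library ended the calls of Mustn1 (control replicate 2, adjusted p = 0.23; PE replicate 2, 0.075), Wfdc21 (PE replicate 1, 0.094; control replicates 1 and 2, 0.079 and 0.055) and Scgb1c1 (PE replicate 2, 0.07; control replicate 1, 0.23).

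Over the 288 ORFs on no list, 84 were tested, 19 higher and 11 lower, with a median log2 fold change of 0.06. Further called members, taken after their values were seen, had known cellular roles. Psenen, a subunit of γ-secretase, had 75.7 and 69.6 CPM in PE, against 94.0 and 92.5 CPM in control (-0.36 ± 0.06, adjusted p = 3e-06). Hsbp1, which binds heat shock factor 1, had 134 and 139 CPM in PE, against 100 and 103 CPM in control (0.43 ± 0.05, adjusted p = 3.2e-09). Eny2, shared by the SAGA and TREX-2 complexes, had 101 and 97.3 CPM in PE, against 78.1 and 69.5 CPM in control (0.43 ± 0.06, adjusted p = 1.8e-07). The SNARE protein Vamp8 had 56.7 and 60.2 CPM in PE, against 45.3 and 48.2 CPM in control (0.32 ± 0.07, adjusted p = 0.00029). In each of these 4 ORFs the PE and control libraries did not overlap.

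**Figure D3:**
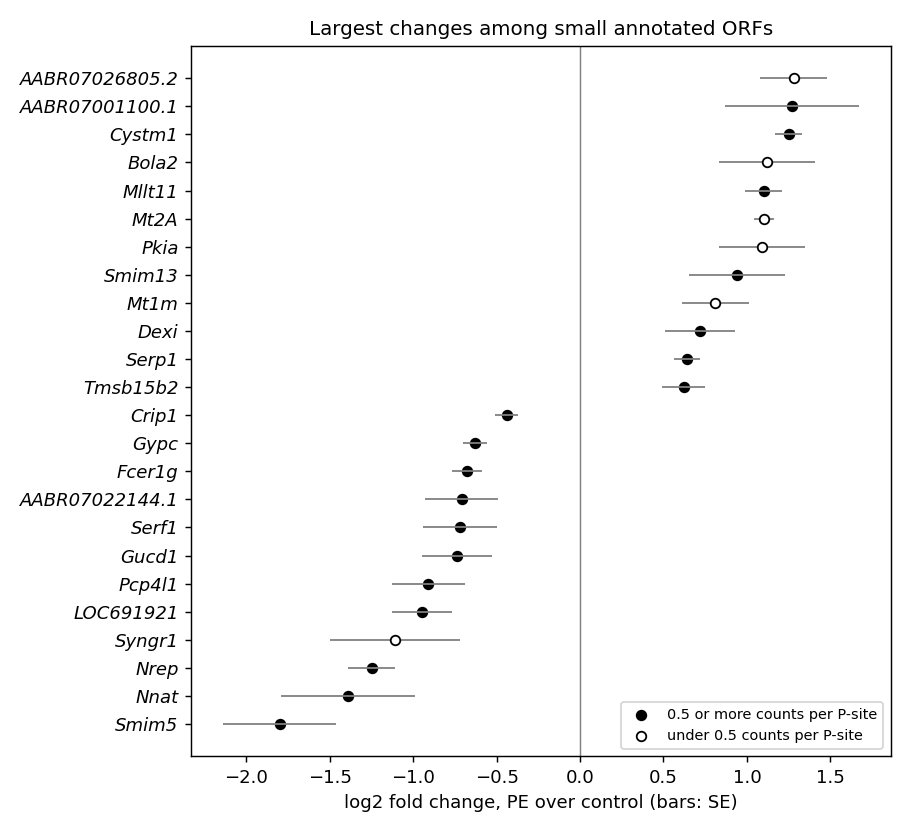
Log2 fold changes, PE over control (horizontal axis, with SE bars), of the 12 highest and 12 lowest called ORFs among those whose groups were apart and whose mean count reached 20. Open points have under 0.5 counts per P-site. Values run from 1.28 for AABR07026805.2 at the top to -1.80 for Smim5 at the bottom.

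Median log2 fold changes were lowest in the class of longest ORFs and about equal from 51 to 200 residues. Tested members of 10 to 50 residues had a median log2 fold change of 0.34 (10 ORFs), those of 51 to 75 residues one of 0.11 (53 ORFs) and those of 76 to 101 residues one of 0.12 (122 ORFs). Among longer annotated ORFs the median was 0.12 at 102 to 200 residues, 0.04 at 201 to 500, -0.05 at 501 to 1000 and -0.16 above 1000. Higher and lower calls made up 33.0% and 14.3% of ORFs of 102 to 200 residues, and 14.2% and 40.7% of those above 1000. The short annotated ORFs left out by name had a median of 0.14, with 32 higher and 12 lower of 68 tested. A smooth trend of log2 level against ORF length was then taken out of each library. Of the 185 tested members, 42 were then called higher, beside 20.9% of all tested ORFs, and 32 lower, beside 19.7%. Their median log2 fold change became 0.01. Each member's log2 fold change shifted by -0.21 to -0.12. The same 60 members were called in both fits, 42 higher and 18 lower, 13 higher calls were lost, and 14 members became lower. Signs turned in 0 of the members called in either fit. For members called without this correction that was fixed, as every shift was downward and smaller than the lowest higher call of 0.22. Some members kept their call while the log2 value itself, not the fold, changed by about 1.5 times or more. They included Higd1a (0.16), Ost4 (0.20), Minos1 (0.15), Cops9 (0.24), Dynlrb1 (0.23), Txn1 (0.26), Vamp8 (0.19), Mt-nd5 (0.22), Smpx (-0.27) and Banf1 (-0.27).

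**Figure D4:**
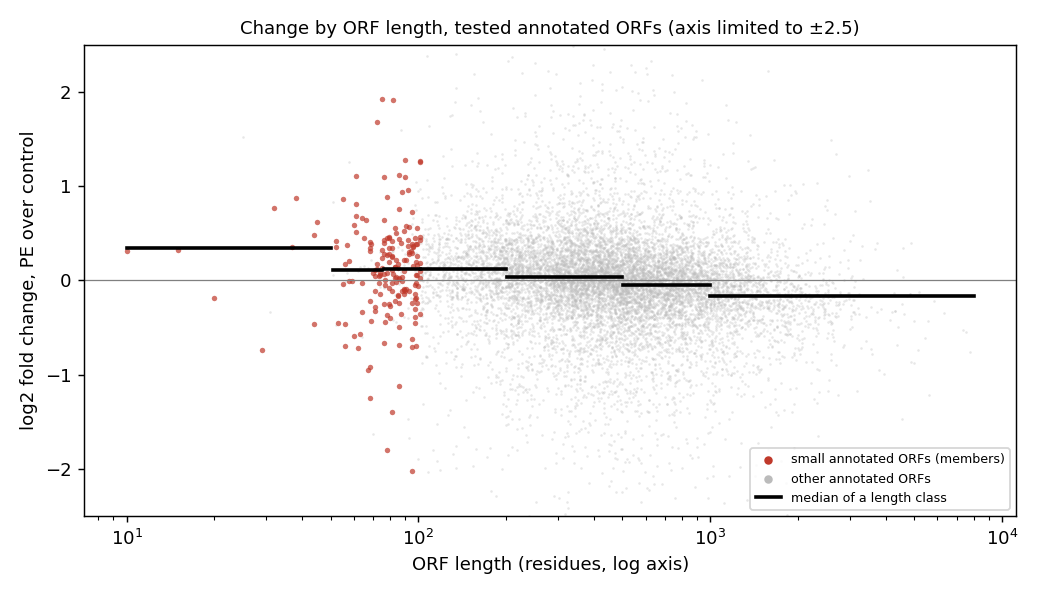
Log2 fold change, PE over control (vertical axis), against ORF length in residues (log axis) for tested annotated ORFs. Red points are the small annotated ORFs, grey points the other annotated ORFs, and black lines the medians of length classes, which run from 0.34 at 10 to 50 residues to -0.16 above 1000. Points beyond 2.5 in either direction are not drawn, D430019H16Rik among them.

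Features that the length limit did not use varied among the members. A window of 19 residues with a mean Kyte-Doolittle hydropathy of at least 1.6, which marks a likely membrane span or signal peptide, was found in 99 members. Of their 54 tested ORFs, 17 were higher and 8 lower, with a median log2 fold change of 0.10. Without such a window, 131 were tested, 38 higher and 10 lower, with a median of 0.14. The difference between these classes was not tested. The gene had no longer annotated ORF listed in 300 members, of which 175 were tested, with 53 higher and 17 lower. In 76 members the gene had a longer ORF listed, and 5 of these could be tested, including Cystm1 and Syngr1. A further 37 members came from transcripts annotated for nonsense-mediated decay, and 0 of them had enough counts for a test. The mitochondrial genome gave 5 members, of Mt-atp6, Mt-co2, Mt-nd4l and Mt-nd5, with 37.3% to 54.9% of P-sites in frame, beside a median of 84.2% over all members and 84.1% over all annotated ORFs. The Mt-nd5 member of 52 residues was higher (0.36 ± 0.09, adjusted p = 0.00097) and is far shorter than the full protein. Under 60% of P-sites were in frame in 14 members, with the lowest share at 13.1% in Serf2.

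Counts were often missing where P-sites were present. Of the 233 members that were not tested, 143 had 0 counts in all 4 libraries and 90 had few. The 143 held 8 to 12085 P-sites each, with a median of 379, and 34 of them had at least 1000. Together they held 22.7% of the members' P-sites. Another listed ORF overlapped 88 of them, 67 shared at least 50% of their 10-residue windows with ORFs of other genes, and 141 met either condition. Of the 148 tested members at or above 0.5 counts per P-site, 16 met either condition, with 46 higher and 17 lower. Of the 37 below that ratio, 27 did, with 9 higher and 1 lower. Dbi, the acyl-CoA-binding protein, had 30096 P-sites but 3 and 10 counts in PE and 10 and 3 counts in control, and overlaps a longer ORF of its gene. For these ORFs the counts do not give the level, and a change was not detectable.

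**Figure D5:**
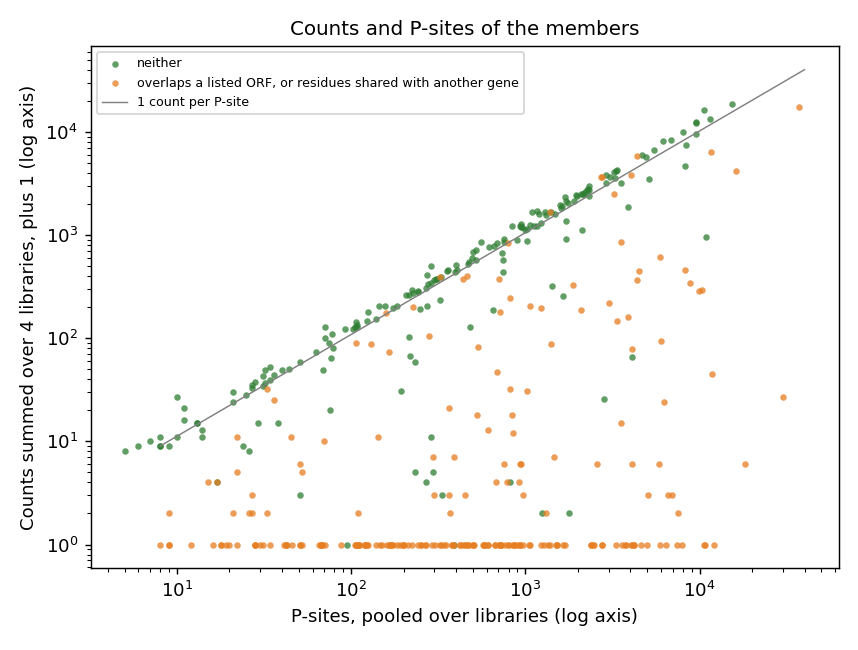
Counts summed over the 4 libraries plus 1 (vertical log axis) against P-sites pooled over libraries (horizontal log axis) for the 418 members. Orange ORFs overlap another listed ORF or share at least 50% of 10-residue windows with another gene, green ORFs do neither, and the line marks 1 count per P-site. The 143 members with 0 counts form the bottom row, and 141 of them are orange.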

How the data were processed

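Ribosome profiling libraries of PE-treated (2) and control (2) cells were grouped by sample title. The submitters' processing notes name STAR 2.4.2a, Bowtie 1.1.2, cutadapt 2.0 and the Rnor_6.0 build. For ORF calling and counting, a program is not given in the sources used here. Raw footprint counts for each ORF were deposited by the authors. Per the file headers, a second table annotates the ORFs, with P-sites as 1 value per ORF and frame, and holds the authors' own DESeq2 comparison (log2 fold change, p-value, adjusted p-value). That table called 37 of 198 members with an adjusted p higher and 9 lower, and all 46 were called here in the same direction.

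Counts were filtered with filterByExpr, scaled by TMM (factors 0.982 to 1.02) and fitted by robust quasi-likelihood in edgeR 4.0.16 under R 4.3.3, group only, with p-values adjusted by Benjamini-Hochberg over 12609 ORFs. SE was derived as the absolute log2 fold change over the root of F. The common biological coefficient of variation was 2.18%, so small changes can pass. Alternatives were RLE factors, library totals, no filter, a replicate block, removal of a length trend (loess, span 0.5, as offsets), at least 0.5 counts per P-site, 1 annotated ORF per gene, leaving out each library, and DESeq2 1.42.0.

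Members and role lists were chosen with earlier results of these data known. Named were the 12 highest and 12 lowest called members with groups apart and a mean count of 20 or more, the 10 of highest level per kb, for each list up to 4 members of smallest p in the direction of most calls and up to 2 called the other way, the always named Tmsb4x, Tmsb10, Mrln, Strit1, Apln, Camk2n1, Cks2, Mt2A and Ost4, and the 6 members with most P-sites at 0 counts. Others are said to be chosen after their values were seen. Residue identity and windows came from the deposited residues (Biopython 1.88).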

Additional observations from a re-analysis of the deposited data

Results flagged for a closer look

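P-sites were present on 143 small annotated ORFs that had 0 counts in all 4 libraries, so the comparison did not use them. The most P-sites among them were on a 70-residue ORF of LOC108348144 with 12085, a 60-residue ORF of LOC691427 with 10773, a 66-residue ORF of LOC108348144 with 10545, LOC108350501 with 7933, LOC100360781 with 7432 and AABR07049320.1 with 6409. In each of these 6 ORFs, 96.5% to 100% of 10-residue windows recur in listed ORFs of other genes. Among all members, 58 have residues that another listed ORF repeats in full, 42 of these had 0 counts, and 28 had the same P-site total as their twin. The P-sites are pooled over libraries in the deposited annotation, so PE cannot be set against control for them. Groups of 2 libraries are too small for a search for outlying samples.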

How the results depend on the processing

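The count of higher members was 37 to 57 over the alternatives, all within 1.5 times of 55. The count of lower members, 18, was 32 with the length trend removed and 9 by DESeq2, and 16 to 24 in the other fits over all 4 libraries. The median log2 fold change, 0.13, was 0.09 with library totals, 0.07 without the filter (275 tested), and 0.01 with the length trend removed, which by its construction lowers short ORFs. Leaving out each library gave 44 to 55 higher, 13 to 19 lower and a median of 0.09 to 0.19, where the lone library of a group is assumed to vary like the others. Whether replicate numbers mark pairs is not known. The correlation of same-numbered deviations was -0.0155, but counting noise can pull it toward 0, so it cannot exclude pairing. A replicate block gave 56 higher, 20 lower and a median of 0.13. Among the calls gained were Gng12 (0.17, adjusted p = 0.035) and Smim8 (-0.47, adjusted p = 0.033). Of 64 named tested members, 40 had the same status, called or not called, in every alternative that tested them. These 40 include members that were never called, such as Apln and Camk2n1. DESeq2 ended 15 named calls: AABR07001100.1, Smim13, Dexi, Nnat, Syngr1, Gucd1, Serf1, AABR07022144.1, Anapc11, Lsm2, Banf1, Smim14, Smim3, Gng10 and Ifi27l2b. It also ended those of Atox1, Cmc2, Romo1, Sumo2, Mustn1, Scgb1c1 and Wfdc21. Its count over all ORFs fell as well, to 1724 higher and 1722 lower. Members at 0 counts give no level here, though each held P-sites.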
